A study of Mus musculus with 12 samples.

Results

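The semaphorins, ephrins, Slits and netrins, with the plexins, neuropilins, Eph receptors, Robos, Unc5 receptors and Dcc that read them, are described here as 1 set of guidance genes. Members were chosen by gene symbol alone, with no measured value, and 67 of the 13942 genes of the deposited table belong to the set. They comprise 7 secreted class 3 semaphorins, 13 membrane-bound semaphorins of classes 4 to 7, 9 plexins and 2 neuropilins. The set also holds 8 EphA and 5 EphB receptors, 5 ephrin-A and 3 ephrin-B ligands, 3 Slits, 4 Robos, 4 netrins, 3 Unc5 receptors and Dcc. RNA of the retinal pigment epithelium (RPE), the pigmented cell layer behind the retina, came from C57BL/6J mice labelled wild type (WT) or Sox9.cKO (cKO below), where Sox9 encodes a transcription factor. Each label was sampled at embryonic day E15.5 and at postnatal day 5 (P5), with 3 polyA RNA libraries in each of the 4 groups. The sources used here give no Cre line or its cell type, no deleted exons of Sox9, no number of animals per library and no account of how the RPE was separated. The p-values therefore measure only the spread between these libraries, which may be technical.

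Guidance cues are ligands that attract or repel growing axons and migrating cells. Class 3 semaphorins are secreted and act through neuropilins and plexins, while the other vertebrate semaphorins are membrane-bound and mostly bind plexins directly. Eph receptors are tyrosine kinases that meet ephrins on neighbouring cells. EphA receptors mostly bind the lipid-anchored ephrin-A ligands and EphB receptors mostly the transmembrane ephrin-B ligands. Slits repel through Robo receptors, and netrin-1 attracts through Dcc and repels through Unc5 receptors. In the eye these systems are known for steering retinal axons and for shaping blood vessels, and the RPE lies between the photoreceptors and the vessels of the choroid.

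Values are gene counts that the authors quantile-normalised, so that each library has the median 367.4 and no gene lies below 50 (the floor); sequencing depth is therefore unknown. The count of Sox9 was not lower in the libraries labelled cKO: it stood at 1156, 1060.3 and 932 in the WT-labelled libraries and 1034, 990.0 and 1006 in the cKO-labelled libraries at E15.5. At P5 it stood at 964, 1499.5 and 1111 and at 2136, 2384 and 2928, and the cKO-labelled libraries lay 1.07 ± 0.17 (SE) higher on the log2 scale (adjusted p = 0.0316). Whether the count covers the deleted exons is not known, so WT and cKO name labels below and every genotype direction rests on them. Of 20 RPE markers 19 were in the table, with Kcnj13, Rpe65 and Rgr at the floor in all 6 E15.5 libraries. The mean log2 value of the 19 at E15.5 was 9.79, 9.58 and 9.42 in WT and 9.26, 8.91 and 9.21 in cKO, without overlap. At P5 it was 12.3, 12.4 and 11.1 in WT and 11.2, 11.4 and 11.7 in cKO. Rpe65 stayed at the floor in all P5 libraries labelled cKO, and no RPE marker did so throughout P5 WT. The part of this marker difference in the genotype comparisons was not tested. Markers of mesenchyme and pericytes had a mean log2 value of 11.7 to 12.7 and those of skeletal muscle one of 9.20 to 11.6 over the 12 libraries. At E15.5 the mesenchyme and pericyte markers summed to 356906 to 543997 in WT and 460191 to 531086 in cKO. The muscle markers summed to 45536 to 86547 and 46019 to 74128, and the RPE markers to 37815 to 53759 and 29953 to 47135. Levels and changes of the members were not assigned to a cell type. The P5 libraries differed among themselves in retinal RNA: 24 photoreceptor markers had a mean log2 value of 7.34, 8.51 and 11.4 in WT replicates 1 to 3 and 7.36, 10.6 and 9.64 in cKO replicates 1 to 3, against 6.14 to 6.21 at E15.5. WT replicate 3 and cKO replicate 2 held the highest value of their label at P5, with cKO replicate 3 nearer to replicate 2 than to replicate 1, and the main counts below are also given without both. In such bulk libraries, fewer cells of a type and less RNA per cell cannot be told apart.

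Promoter windows of 4 members are shown because Sema7a rose and Epha7 fell with age at the lowest adjusted p of the members, Robo1 fell in both genotypes under every alternative, and Ephb1 gained a call between the P5 labels when 1 library was left out. Each window is the 250 bases before the first start that RefSeq lists (build GRCm38.p6), read 5′ to 3′ on the strand of the gene, in lower case. Capitals mark a match, on either strand, to AACAAT (the core bound by SOX proteins), CACGTG (the E-box of MITF and related factors) or CATGTG (the M-box core); the 3 motifs do not overlap one another.
Sema7a, chr9:57939862-57940111, plus strand: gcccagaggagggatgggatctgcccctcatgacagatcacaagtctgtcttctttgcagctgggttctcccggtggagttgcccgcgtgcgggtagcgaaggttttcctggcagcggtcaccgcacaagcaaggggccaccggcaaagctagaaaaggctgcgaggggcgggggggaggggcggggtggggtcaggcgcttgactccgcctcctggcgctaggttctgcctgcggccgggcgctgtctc
Epha7, chr4:28812881-28813130, plus strand: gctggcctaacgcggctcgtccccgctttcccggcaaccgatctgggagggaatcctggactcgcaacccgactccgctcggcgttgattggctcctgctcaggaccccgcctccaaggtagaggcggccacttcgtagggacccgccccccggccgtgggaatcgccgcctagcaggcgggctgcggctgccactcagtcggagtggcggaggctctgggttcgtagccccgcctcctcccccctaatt
Robo1, chr16:72662899-72663148, plus strand: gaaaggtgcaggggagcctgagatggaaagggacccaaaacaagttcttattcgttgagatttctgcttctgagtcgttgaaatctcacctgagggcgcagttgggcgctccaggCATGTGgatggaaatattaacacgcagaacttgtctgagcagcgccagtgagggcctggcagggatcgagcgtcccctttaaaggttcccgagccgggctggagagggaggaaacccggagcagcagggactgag
Ephb1, chr9:102354694-102354943, minus strand: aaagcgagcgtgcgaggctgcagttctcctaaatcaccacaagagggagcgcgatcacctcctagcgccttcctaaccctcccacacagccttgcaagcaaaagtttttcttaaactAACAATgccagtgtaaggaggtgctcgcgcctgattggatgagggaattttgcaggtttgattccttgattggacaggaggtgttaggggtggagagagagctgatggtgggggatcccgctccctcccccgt

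The Sema7a and Epha7 windows hold none of the 3 motifs, the Robo1 window holds CATGTG and the Ephb1 window holds AACAAT. The Robo1 start lies inside the gene as GENCODE annotates it (chr16:72308306-73046095), and the Ephb1 window overlaps an exon of the non-coding gene Gm26846. Of the 67 members, 58 had a window. Each of the 3 motifs, in the order given above, was found in 3 of these 58 (5.17%), against 9.42%, 6.02% and 12.3% of all 32851 promoter windows and 5%, 8.41% and 6.93% of those of 10211 genes tested. A match is a run of letters and not a site, and a missing match says only that these letters are not in this window.

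Of the 67 members, 65 exceeded the floor in 3 or more of the 12 libraries and were tested; Sema4f and Plxnb3 exceeded it in only 2 libraries. Among those tested, Dcc and Epha10 exceeded the floor in 3 libraries, Slit1 in 4 and Robo3 in 6. To compare genes, levels were divided by the merged exon length of GENCODE M21 (values per kb, mean of 12 libraries). On this scale the highest member was Plxnb2, a receptor of class 4 semaphorins, at 755 per kb. Next came the transmembrane ligand Efnb1 at 545 per kb, the Sema3e receptor Plxnd1 at 477 per kb, the ephrin-B2 receptor Ephb4 at 437 per kb, Sema3f at 382 per kb and Sema3b at 372 per kb. The lowest was the netrin receptor Dcc at 4.44 per kb, a level set almost wholly by the floor. Netrin-1, its ligand, stood at 209 per kb. Each ligand class thus had a well-detected member: Sema3f, Efna2 (320.0 per kb), Efnb1, Slit3 (76.5 per kb) and Ntn1.

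From E15.5 to P5 the guidance genes changed in both directions, and 49.2% of those tested passed the test in the WT-labelled and 47.7% in the cKO-labelled libraries (38.2% and 43.7% of all genes tested). A member was called at an adjusted p under 0.05 in limma, adjusted over all 13523 genes tested. In the WT-labelled libraries 13 members rose (20%, against 15% of all genes tested) and 19 fell (29.2%, against 23.2%). In the cKO-labelled libraries 11 rose (16.9%, against 17.6%) and 20 fell (30.8%, against 26.1%). With median-ratio rescaling of the libraries 15 rose and 16 fell in WT and 13 rose and 19 fell in cKO, and the shares of all genes became 18.8% and 18% in WT and 21.3% and 20.6% in cKO. The median change of the members was -0.14 in WT and -0.20 in cKO on the log2 scale, and that of all genes tested -0.07 and -0.08. Without WT replicate 3 and cKO replicate 2 of P5, 17 members rose and 23 fell in WT, and 15 rose and 26 fell in cKO, against 22.4%, 29.8%, 21.9% and 29.8% of all genes.

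The 2 age comparisons share no library. In both, 10 members rose: Sema3b, Sema3g, Sema4a, Sema7a, Nrp1, Efna1, Robo3, Robo4, Ntn4 and Ntng2. These 10 of 65 stand against 12.4% of all genes tested that rose in both. They were 76.9% of the WT and 90.9% of the cKO rises, against 82.8% and 70.6% for all genes. Robo3 entered the test through its P5 libraries alone, so its rise was built into the filter. In both, 17 fell: Sema3a, Sema3e, Sema5a, Sema6b, Sema6c, Plxna3, Epha1, Epha3, Epha4, Epha7, Ephb2, Ephb3, Efna2, Efna3, Efna4, Efnb3 and Robo1. These 17 of 65 stand against 20.1% of all genes tested. They were 89.5% of the WT and 85% of the cKO falls, against 86.6% and 77.2% for all genes. No member was called in opposite directions, and 29 were called in neither genotype. Without WT replicate 3 and cKO replicate 2 of P5, 14 rose in both, 21 fell in both and 19 were called in neither. The share of all genes called in both is not given for that fit. More of all genes were called in each age comparison there too, so the larger counts are no result about the members.

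**Figure D1:**
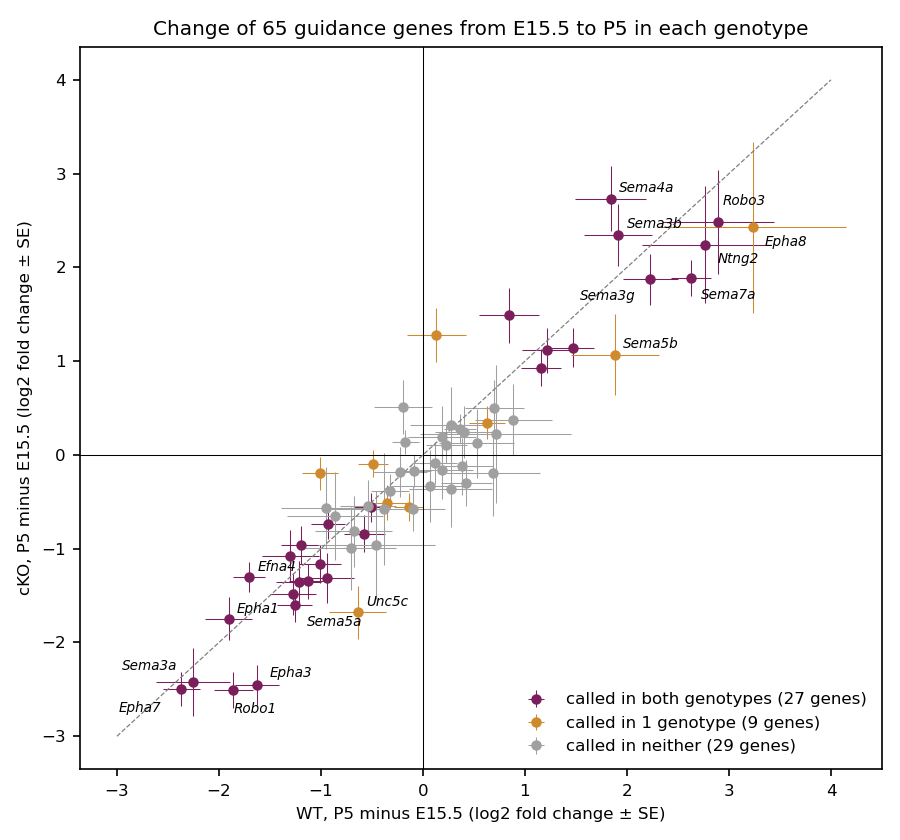
Change of the 65 tested guidance genes from E15.5 to P5 in the WT-labelled libraries (x axis) against the cKO-labelled libraries (y axis), each as log2 fold change with its SE and n = 3 libraries per group. Colours mark the 27 genes called in both genotypes, the 9 called in 1 and the 29 called in neither; the dashed line marks equal change, and no gene was called in opposite directions.

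Counts by role below stand against the shares of all genes given above, and no role was tested as a set. The secreted class 3 semaphorins split by gene. Of 7, Sema3b and Sema3g rose in both genotypes, Sema3a and Sema3e fell in both, and Sema3f fell in WT. Sema3a, the repellent ligand of neuropilin-1, stood at 1169, 957 and 1129.6 in WT and 1093, 1053 and 1116 in cKO at E15.5. At P5 it stood at 340.3, 203 and 167 in WT and 392, 144 and 145 in cKO. Every P5 library was below every E15.5 library, and the change was -2.25 ± 0.36 (SE) in WT (adjusted p = 0.000858) and -2.42 ± 0.36 in cKO (adjusted p = 0.000475). Sema3b, another secreted ligand, stood at 703, 723 and 508 in WT and 612, 631 and 618 in cKO at E15.5 and at 3330.3, 3368 and 1236 in WT and 3224, 2615 and 3759.5 in cKO at P5. All P5 libraries exceeded all E15.5 libraries, with WT replicate 3 the lowest of them by far. The rise was 1.91 ± 0.33 in WT (adjusted p = 0.00132) and 2.35 ± 0.33 in cKO (adjusted p = 0.000339).

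Sema3g, a class 3 semaphorin known from vascular endothelium, stood at 118, 122 and 102 in WT and 91.8, 119 and 119 in cKO at E15.5. At P5 it reached 682, 609 and 373 in WT and 569.7, 294 and 389.8 in cKO. The groups did not overlap, and the rise was 2.23 ± 0.27 in WT (adjusted p = 0.000176) and 1.87 ± 0.27 in cKO (adjusted p = 0.000407). Sema3f, the ligand of neuropilin-2 and the class 3 gene with the highest level per kb, stood at 2381, 2028 and 2015 in WT and 1929, 1950.3 and 2786 in cKO at E15.5 and at 1592, 1345 and 1653 in WT and 1943, 2091 and 2129 in cKO at P5. The WT groups did not overlap and the cKO groups did: the change was -0.49 ± 0.15 in WT (adjusted p = 0.025) and -0.09 ± 0.15 in cKO (adjusted p = 0.638). The WT call was lost without E15.5 WT replicate 1 (adjusted p = 0.0942) or P5 WT replicate 2 (adjusted p = 0.0889), with median-ratio rescaling (adjusted p = 0.0697) and with the lens or endothelium markers as a covariate (adjusted p = 0.0985 and 0.255). Sema3c, which can bind both neuropilins, changed by 0.19 ± 0.33 in WT and passed when P5 WT replicate 3 was left out (0.63, adjusted p = 0.0320).

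Among 12 tested membrane-bound semaphorins, Sema4a and Sema7a rose and Sema5a, Sema6b and Sema6c fell in both genotypes. Sema5b rose in WT and Sema6a fell in cKO. Sema7a, a lipid-anchored semaphorin that binds plexin-C1 and integrins, stood at 159, 150.2 and 146 in WT and 138, 223 and 185 in cKO at E15.5. At P5 it stood at 1022, 774 and 1060.3 in WT and 786, 628 and 596 in cKO. The lowest P5 library lay well above the highest E15.5 library, and the P5 values were close within a group. The rise was 2.63 ± 0.19 in WT (adjusted p = 8.92e-06) and 1.89 ± 0.19 in cKO (adjusted p = 5.03e-05), and the call held under every alternative run. Its receptor gene Plxnc1 was not called (0.43 ± 0.25 in WT, -0.30 ± 0.25 in cKO).

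Sema4a, a transmembrane semaphorin whose loss is known to lead to photoreceptor degeneration, stood at 170.3, 168 and 95.8 in WT and 162, 219 and 151 in cKO at E15.5. At P5 it stood at 544, 755 and 312 in WT and 827, 1403 and 1368 in cKO, with the cKO-labelled libraries above all of the WT-labelled ones. The rise was 1.84 ± 0.35 in WT (adjusted p = 0.00218) and 2.73 ± 0.35 in cKO (adjusted p = 0.000184). Sema5a, which with Sema5b is known to repel the processes of retinal neurons, stood at 2754, 2556 and 2469 in WT and 2629.8, 2306 and 2801 in cKO at E15.5 and at 1117, 857 and 1323 in WT and 1056, 765 and 747 in cKO at P5. It fell by 1.26 ± 0.17 in WT (adjusted p = 0.000349) and by 1.60 ± 0.17 in cKO (adjusted p = 7.54e-05), with no overlap between ages. Sema5b went the other way. It stood at 149.6, 126 and 138 in WT and 194, 155 and 160.5 in cKO at E15.5 and at 315, 379 and 1105 in WT and 228, 538 and 369.6 in cKO at P5, and WT replicate 3 held the highest value. The rise was 1.88 ± 0.43 in WT (adjusted p = 0.00607) and the change in cKO was 1.07 ± 0.43 (adjusted p = 0.0646). The cKO change passed without P5 WT replicate 1 (adjusted p = 0.0452), P5 WT replicate 3 (adjusted p = 0.00624) or P5 cKO replicate 1 (adjusted p = 0.0284). It also passed with median-ratio rescaling, library weights, the libraries of the contrast alone and without WT replicate 3 and cKO replicate 2 of P5. So it did with the lens, retinal neuron or endothelium markers as a covariate. Over all alternatives its adjusted p ran from 1.46e-05 to 0.35. Sema6c, the class 4 to 7 gene with the highest level per kb (173), stood at 1291, 1358 and 1234 in WT and 1342, 1343 and 1298 in cKO at E15.5 and at 748, 588 and 708 in WT and 963, 883 and 597 in cKO at P5. It fell by 0.93 ± 0.16 in WT (adjusted p = 0.0014) and by 0.73 ± 0.16 in cKO (adjusted p = 0.00458).

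Of 8 tested plexins only Plxna3 was called, and of 2 neuropilins only Nrp1, each in both genotypes. These are 12.5% and 50%, against 38.2% of all genes tested in WT and 43.7% in cKO. Plxna3, a partner of neuropilins in class 3 signalling, stood at 789.6, 681 and 740.3 in WT and 821, 820.5 and 794 in cKO at E15.5 and at 267, 338 and 535 in WT and 334, 402 and 353 in cKO at P5. It fell by 1.01 ± 0.21 in WT (adjusted p = 0.00337) and by 1.16 ± 0.21 in cKO (adjusted p = 0.0013), and no P5 library reached the E15.5 range. Nrp1, which encodes the neuropilin that binds both Sema3a and VEGF, stood at 1506, 1392 and 1433 in WT and 1505, 1415 and 1529 in cKO at E15.5 and at 5256, 4429 and 2739.9 in WT and 4057, 3096 and 2807 in cKO at P5. The E15.5 libraries were tight and every P5 library lay above them. The rise was 1.47 ± 0.21 in WT (adjusted p = 0.000447) and 1.15 ± 0.21 in cKO (adjusted p = 0.00162). Nrp2, the co-receptor of Sema3f, stood at 4343, 2386 and 1589 in WT and 3411, 1223 and 1692 in cKO at P5, a wide spread on both sides of its E15.5 range of 2129 to 2669.8, and changed by 0.06 ± 0.38 in WT and -0.34 ± 0.38 in cKO.

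Plxnb2, the most abundant member per kb, stood at 6247, 5513 and 5038 in WT and 5661, 5718 and 6851 in cKO at E15.5 and at 5169, 5345 and 4376 in WT and 5984, 6973 and 7077 in cKO at P5. These are overlapping ranges, and the changes of -0.17 ± 0.13 and 0.14 ± 0.13 did not pass. Plxnd1, an endothelial receptor, stood at 2864, 2425 and 2445 in WT and 2149.9, 2566 and 3086 in cKO at E15.5 and at 7511, 4786 and 2984 in WT and 5637, 2002 and 3303 in cKO at P5. All 3 P5 libraries labelled WT exceeded those of E15.5, yet WT replicate 1 was far above replicate 3 and the change of 0.89 ± 0.38 did not pass (adjusted p = 0.0857). It passed without P5 WT replicate 3 (1.22, adjusted p = 0.0181), without P5 cKO replicate 1 (adjusted p = 0.0440) and without P5 cKO replicate 2 (adjusted p = 0.0492).

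Of 8 EphA receptors, 4 fell in both genotypes (Epha1, Epha3, Epha4 and Epha7) and 2 rose in WT (Epha2 and Epha8). EphA receptors are known for mapping retinal axons onto the brain. Epha7 stood at 689, 668 and 584 in WT and 674, 725 and 578 in cKO at E15.5 and at 95.5, 141 and 142 in WT and 106, 133 and 109 in cKO at P5. The ages were far apart, and it fell by 2.37 ± 0.18 in WT (adjusted p = 1.03e-05) and 2.50 ± 0.18 in cKO (adjusted p = 6.84e-06). Epha3 stood at 609, 544 and 738 in WT and 574, 951 and 832 in cKO at E15.5 and at 175, 196 and 239 in WT and 169, 131 and 122 in cKO at P5. It fell by 1.63 ± 0.22 in WT (adjusted p = 0.000279) and by 2.46 ± 0.22 in cKO (adjusted p = 2.14e-05), again without overlap. Both receptors kept their calls under every alternative run.

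Epha8 had the largest fitted rise of any member and the widest spread. It stood at 83.9, 77.7 and 93.8 in WT and 54.8, 52.1 and 71.3 in cKO at E15.5 and at 218, 572 and 4186 in WT and 114, 679.7 and 424 in cKO at P5. The highest of the 6 P5 values, WT replicate 3, was 36.6 times the lowest, cKO replicate 1. The rise was 3.23 ± 0.91 in WT (adjusted p = 0.0177) and the change in cKO was 2.43 ± 0.91 (adjusted p = 0.0515). The WT call was lost without E15.5 WT replicate 2 (adjusted p = 0.0523) and with the libraries of the contrast alone (adjusted p = 0.0609), and its size fell to 2.04 without P5 WT replicate 3 (adjusted p = 0.0225). In cKO it passed without P5 WT replicate 1 (adjusted p = 0.0218), P5 WT replicate 3 (adjusted p = 0.00479) or P5 cKO replicate 1 (adjusted p = 0.0198). The cKO change also passed with stricter filters, median-ratio rescaling, library weights, the libraries of the contrast alone and the replicate block. So it did without WT replicate 3 and cKO replicate 2 of P5, and with the lens, retinal neuron or endothelium covariate. Over all alternatives its adjusted p ran from 3.39e-05 to 0.165. Epha5 gave no call (0.71 ± 0.74 in WT) with P5 values of 110.0, 223 and 1049 in WT and 101, 387 and 239 in cKO, and Epha10, which lacks kinase activity, exceeded the floor in 3 P5 libraries, at 116 in WT replicate 3 and 72.3 and 58.2 in cKO replicates 2 and 3.

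Of 5 EphB receptors, Ephb2 and Ephb3 fell in both genotypes and none rose. Ephb3 stood at 1841, 1645 and 1780.4 in WT and 1671, 1726 and 1918 in cKO at E15.5 and at 832, 854 and 601 in WT and 1040.3, 547 and 581 in cKO at P5. It fell by 1.22 ± 0.22 in WT (adjusted p = 0.00182) and by 1.35 ± 0.22 in cKO (adjusted p = 0.000833), and no library of one age lay in the range of the other. Ephb2 stood at 2036, 1758 and 1884 in WT and 1758, 1679.5 and 2174 in cKO at E15.5 and at 746, 746 and 1706 in WT and 794, 732 and 724 in cKO at P5, where WT replicate 3 stood far above every other P5 library. It fell by 0.94 ± 0.27 in WT (adjusted p = 0.0178) and by 1.31 ± 0.27 in cKO (adjusted p = 0.00283). The WT call was lost without E15.5 WT replicate 1 (adjusted p = 0.0584) or 3 (adjusted p = 0.0519) and without P5 WT replicate 1 (adjusted p = 0.0600) or 2 (adjusted p = 0.0694), and with the libraries of the contrast alone (adjusted p = 0.0841). Ephb4, the receptor of venous endothelium, stood at 2545, 2446 and 2459 in WT and 1989, 2497 and 2889 in cKO at E15.5 and at 2499, 1774 and 841 in WT and 2156, 922 and 1328 in cKO at P5. Its changes of -0.68 ± 0.38 and -0.81 ± 0.38 did not pass; that in cKO passed without P5 WT replicate 3 (adjusted p = 0.0267) or P5 cKO replicate 1 (-1.13, adjusted p = 0.0334). Ephb6, which lacks kinase activity, changed by 0.12 ± 0.22 in WT and -0.08 ± 0.22 in cKO.

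All 5 ephrin-A ligands were called in WT and 4 in cKO (38.2% and 43.7% of all genes tested). Efna1 rose in both, Efna2, Efna3 and Efna4 fell in both, and Efna5 fell in WT. Efna1, a ligand known from endothelium and epithelia, stood at 351, 376 and 312 in WT and 364, 371 and 357 in cKO at E15.5 and at 821, 1029 and 547 in WT and 773, 633 and 683 in cKO at P5. The rise was 1.16 ± 0.20 in WT (adjusted p = 0.00114) and 0.93 ± 0.20 in cKO (adjusted p = 0.00345), with no overlap. Efna4 stood at 527, 545 and 566 in WT and 509, 512 and 488 in cKO at E15.5 and at 175, 208 and 127 in WT and 197, 202 and 210.5 in cKO at P5. It fell by 1.70 ± 0.16 in WT (adjusted p = 3.57e-05) and by 1.30 ± 0.16 in cKO (adjusted p = 0.000154). Efna2, the ephrin-A with the highest level per kb, stood at 891, 776 and 1066 in WT and 951, 848 and 995 in cKO at E15.5 and at 294, 432 and 486 in WT and 388, 538 and 520.3 in cKO at P5. It fell by 1.19 ± 0.20 in WT (adjusted p = 0.00115) and by 0.96 ± 0.20 in cKO (adjusted p = 0.00337). Per kb, Efna2 led Efna4 and Efna1 at E15.5 in WT (428, 341 and 189 per kb) and Efna1 led at P5 (437 per kb, against 189 per kb for Efna2 and 106 per kb for Efna4).

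Efna5, which with Efna2 forms the gradient that retinal axons read in the midbrain, stood at 843, 660.3 and 747 in WT and 787, 709.5 and 748 in cKO at E15.5 and at 401, 463 and 273 in WT and 652, 622 and 681 in cKO at P5. All P5 libraries lay below all E15.5 libraries of their genotype. It fell by 1.01 ± 0.17 in WT (adjusted p = 0.0013) and the change in cKO was -0.20 ± 0.17 (adjusted p = 0.383). Of the ephrin-B ligands, Efnb3 fell in both genotypes. It stood at 1010.2, 859.5 and 1156 in WT and 1070.0, 965 and 1090.2 in cKO at E15.5 and at 342, 324 and 643 in WT and 359, 368 and 389.7 in cKO at P5, a change of -1.27 ± 0.23 in WT (adjusted p = 0.00154) and -1.48 ± 0.23 in cKO (adjusted p = 0.000535). Efnb1, with the second highest level per kb of all members, stood at 2071, 2168 and 2047 in WT and 2223, 2149.9 and 2179 in cKO at E15.5 and at 2077, 1846 and 1161 in WT and 1795, 1316 and 1525 in cKO at P5. It fell by 0.51 ± 0.19 in cKO (adjusted p = 0.0487), a call that was lost without any 1 of the 6 E15.5 libraries, P5 WT replicate 2 or P5 cKO replicate 2 or 3 (adjusted p of 0.0542 to 0.155). It was also lost with no filter on low values (adjusted p = 0.0542), with median-ratio rescaling (adjusted p = 0.102) and with eBayes without trend (adjusted p = 0.0574). Efnb2, the arterial ligand of Ephb4, changed by -0.32 ± 0.19 in WT and -0.39 ± 0.19 in cKO; the cKO change passed without P5 WT replicate 3 (adjusted p = 0.0116).

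The 3 Slits gave no call at either genotype. Slit3 stood at 633, 514 and 394 in WT and 499.7, 686 and 653 in cKO at E15.5 and at 504, 290.1 and 120.5 in WT and 561, 293 and 419.6 in cKO at P5, and changed by -0.95 ± 0.44 in WT, which passed without P5 WT replicate 1 (-1.43, adjusted p = 0.0166). Slit2 changed by -0.54 ± 0.28 in WT and -0.55 ± 0.28 in cKO, and Slit1 was at the floor in 8 libraries. Of the Robo genes, Robo1 fell and Robo3 and Robo4 rose in both genotypes, while Robo2 was not called. Robo1, a Slit receptor and the Robo with the highest level per kb at E15.5 (119 in WT), stood at 2118, 1869 and 1925 in WT and 1990.3, 2237 and 2373 in cKO at E15.5 and at 472, 448 and 750.3 in WT and 458, 378 and 330.3 in cKO at P5. It fell by 1.86 ± 0.19 in WT (adjusted p = 6.06e-05) and by 2.51 ± 0.19 in cKO (adjusted p = 8.68e-06), with no overlap and no alternative that lost the call. Robo4, a receptor of vascular endothelium, stood at 365, 305 and 339 in WT and 274, 329 and 388 in cKO at E15.5 and at 1095, 814 and 529 in WT and 846, 609 and 694 in cKO at P5. The rise was 1.21 ± 0.24 in WT (adjusted p = 0.00295) and 1.12 ± 0.24 in cKO (adjusted p = 0.00402).

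Robo3, known for letting commissural axons cross the midline, was at the floor of 50 in all 6 E15.5 libraries. At P5 it stood at 170.1, 319 and 994 in WT and 156, 491 and 300.3 in cKO. The P5 mean was at least 9.89-fold higher in WT and at least 6.31-fold higher in cKO than the floor; no p is given, since Robo3 passed the filter on low values through its P5 libraries alone. Robo2 stood at 604, 529 and 431 in WT and 771, 599 and 508 in cKO at E15.5 and at 185, 243 and 1176 in WT and 202, 473 and 331 in cKO at P5. Within WT, replicates 1 and 2 of P5 lay below and replicate 3 above every E15.5 library; within cKO all P5 libraries lay below. Its changes of -0.46 ± 0.58 and -0.96 ± 0.58 did not pass; without P5 WT replicate 3 they were -1.28 in WT (adjusted p = 0.00814) and -0.96 in cKO (adjusted p = 0.0168).

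**Figure D2:**
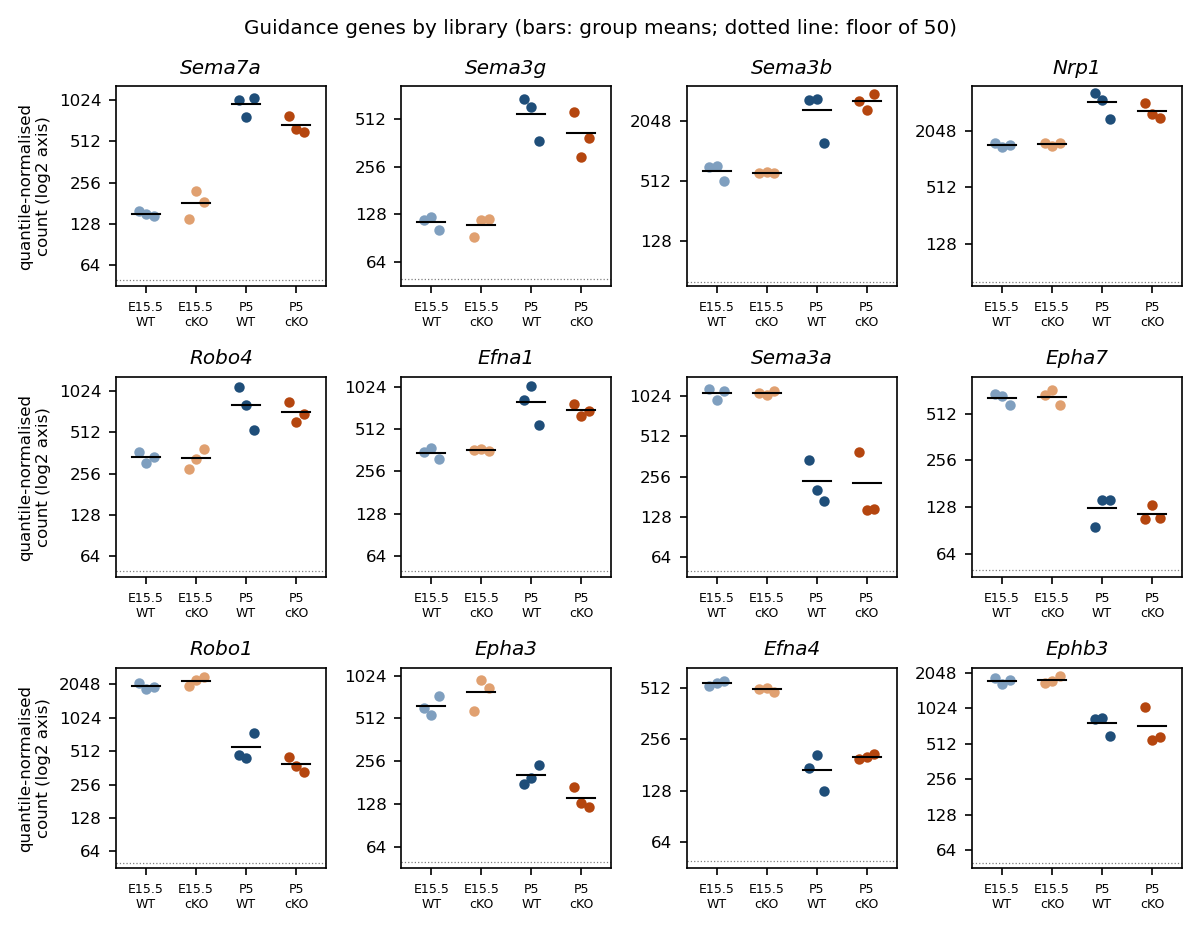
Quantile-normalised value (log2 axis, floor 50) of 12 guidance genes in each of the 12 libraries, with the 4 groups of 3 libraries side by side and 1 point per library. In Sema7a, Sema3g, Sema3b, Nrp1, Robo4 and Efna1 every P5 library lies above every E15.5 library, and in Sema3a, Epha7, Robo1, Epha3, Efna4 and Ephb3 every P5 library lies below.

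The netrins that were called rose, while the fitted changes of Ntn1 were negative. Ntn4 and Ntng2 rose in both genotypes and Ntng1 in cKO, while Ntn1 was not called. Ntng2, a lipid-anchored netrin-G that does not bind Dcc or Unc5, stood at 72.2, 83.4 and 75.0 in WT and 84.1, 73.8 and 65.5 in cKO at E15.5 and at 229, 380.3 and 1686 in WT and 190.1, 607 and 386 in cKO at P5. No P5 library overlapped E15.5, but the P5 values spread 8.87-fold. The rise was 2.77 ± 0.62 in WT (adjusted p = 0.00562) and 2.24 ± 0.62 in cKO (adjusted p = 0.0141), and the cKO call was lost without P5 cKO replicate 2 (1.86, adjusted p = 0.0545). Ntn4, a netrin of basement membranes, stood at 430.3, 439 and 316 in WT and 459, 362 and 403 in cKO at E15.5 and at 959, 874 and 411 in WT and 938, 1140.3 and 1394 in cKO at P5. In WT, replicate 3 of P5 fell inside the E15.5 range and the rise of 0.84 ± 0.29 (adjusted p = 0.0419) was lost without any 1 of the 6 E15.5 libraries, P5 WT replicate 1 or 2 or P5 cKO replicate 2 (adjusted p of 0.0532 to 0.147) and with the libraries of the contrast alone (adjusted p = 0.124). In cKO the rise was 1.49 ± 0.29 (adjusted p = 0.00227). Ntng1 stood at 192, 193 and 147 in WT and 102, 179 and 162 in cKO at E15.5 and at 246, 237 and 124 in WT and 305, 347 and 408 in cKO at P5; it rose by 1.28 ± 0.29 in cKO (adjusted p = 0.00508) and changed by 0.13 ± 0.29 in WT.

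Ntn1, the founding netrin, stood at 1864, 1675 and 1491 in WT and 1537, 1134 and 1793 in cKO at E15.5 and at 1724, 949 and 474 in WT and 1687, 509 and 941 in cKO at P5. Replicate 1 of either genotype stayed in the E15.5 range and the other libraries lay below it; the changes of -0.86 ± 0.47 and -0.65 ± 0.47 did not pass, and that in WT passed without P5 WT replicate 1 (-1.31, adjusted p = 0.0437). Among the netrin receptors, Unc5c fell in cKO. It stood at 265, 233 and 263 in WT and 236, 196 and 302 in cKO at E15.5 and at 124, 152 and 225 in WT and 50, 94.8 and 87.3 in cKO at P5, and fell by 1.68 ± 0.28 in cKO (adjusted p = 0.000941) beside -0.64 ± 0.28 in WT (adjusted p = 0.0967). The WT change passed without P5 WT replicate 3 (-0.88, adjusted p = 0.0236) or P5 cKO replicate 1 (adjusted p = 0.0481). Unc5b, known from vessels, stood at 499, 495 and 528 in WT and 378, 710.4 and 643 in cKO at E15.5 and at 1512, 751 and 482 in WT and 886, 274 and 477 in cKO at P5, and its changes of 0.69 ± 0.46 and -0.19 ± 0.46 did not pass. Dcc exceeded the floor in 3 libraries, with 57.8 and 64.6 in replicate 1 of WT and cKO at E15.5 and 129.8 in replicate 3 of WT at P5.

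At E15.5 no guidance gene was called by genotype label. Of 65 tested, 0 were called in limma (against 0.00739% of all genes, 1 gene, lower in cKO), 0 had an unadjusted p under 0.05 (0.362% of all genes), and 0 were called in any alternative run. The differences, cKO minus WT, ran from -0.52 to 0.44 on the log2 scale with a median of 0.04, and 64 of 65 were within 0.5 of 0. For 52 members the 95% interval of the difference lay within a 2-fold change in either direction. The libraries of the labels did not overlap for 7 members (4 higher and 3 lower in cKO), against 5.1% of all genes (2.11% higher and 2.99% lower). The ends of the range were 2 Eph receptors with low values. Epha8 stood at 83.9, 77.7 and 93.8 in WT and 54.8, 52.1 and 71.3 in cKO, a difference of -0.52 ± 0.91 (95% interval -2.54 to 1.49). The variance of each gene is shared by all 4 groups, so the SE, interval and p at E15.5 also carry the spread at P5. For Epha8 the SD on the log2 scale was 0.135 in WT and 0.239 in cKO at E15.5, against 2.17 and 1.33 at P5. Ephb1 stood at 113, 133 and 143 in WT and 181, 203 and 148 in cKO, a difference of 0.44 ± 0.29 (95% interval -0.19 to 1.08). In both genes the groups did not overlap, and the exact permutation p of 0.1 is the smallest that 3 against 3 libraries allow.

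The 2 members of each role with the largest E15.5 difference were small in most roles. Among semaphorins these were Sema4a (0.32 ± 0.35) and Sema5b (0.30 ± 0.43), Sema3c (-0.07 ± 0.33) and Sema3g (-0.06 ± 0.27). Of their receptors, Plxna4, read by class 3 semaphorins, differed by 0.24 ± 0.20 and Plxna3 by 0.14 ± 0.21. Nrp1 and Nrp2 differed by 0.04 ± 0.21 and -0.01 ± 0.38. Of the ephrins, Efnb2 (0.14 ± 0.19), Efna4 (-0.12 ± 0.16), Efna1 (0.08 ± 0.20) and Efnb1 (0.06 ± 0.19) led, and of their receptors Epha3 (0.30 ± 0.22) and Ephb6 (0.06 ± 0.22) followed Epha8 and Ephb1. In the Slit and Robo group Slit3 differed by 0.27 ± 0.44, Slit1 by 0.09 ± 0.37, Robo2 by 0.26 ± 0.58 and Robo1 by 0.16 ± 0.19. In the netrin group Ntng1 differed by -0.29 ± 0.29, Ntn1 by -0.19 ± 0.47, Unc5b by 0.13 ± 0.46, Unc5c by -0.07 ± 0.28 and Dcc by 0.05 ± 0.31. None of these differences passed.

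At P5 no guidance gene passed either, though differences were wider. Of 65, 0 were called in limma (against 0.244% of all genes, 0.2% higher and 0.0444% lower), and 13 had an unadjusted p under 0.05 (20%, against 7.68% of all genes). The differences ran from -1.33 (Epha8) to 1.21 (Sema4a) with a median of -0.15, against -0.02 over all genes, and the lowest adjusted p was 0.14 (Efna5). For 37 members the 95% interval lay within a 2-fold change in either direction. The labels did not overlap for 8 members, 6 higher and 2 lower in the cKO-labelled libraries, against 6.18% of all genes (3.45% and 2.73%). The higher ones were Sema3f, Sema4a, Plxnb2, Ephb1, Efna5 and Ntng1 and the lower ones Epha3 and Unc5c; their libraries are given above except for Ephb1. Without WT replicate 3 and cKO replicate 2, 0 were called, 8 had an unadjusted p under 0.05 (7.48% of all genes), and the labels did not overlap for 8 higher and 9 lower members (10.4% and 10.9% of all genes, with 2 libraries a label). The summed value of the 18 lens markers in the table was 2442 to 12387 in WT and 11921 to 18612 in cKO, against 2342 to 3188 and 2522 to 3540 at E15.5, where 7 and 5 of them were at the floor in all libraries of the group. No lens marker was at the floor throughout a P5 group, and the part of this signal in the P5 differences was not tested. The count of Sox9 was itself higher in the cKO-labelled libraries at this age, so the directions below are those of the labels.

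Ephb1, known for turning retinal axons away from the midline, stood at 116, 69.0 and 179 in WT and 238, 281 and 236 in cKO at P5. Every cKO-labelled library exceeded every WT-labelled one, and the difference was 1.14 ± 0.29 (95% interval 0.51 to 1.78, adjusted p = 0.245). It passed without P5 WT replicate 3 (1.47, adjusted p = 0.0224); over all alternatives its adjusted p ran from 0.00717 to 1. Efna5 differed by 0.81 ± 0.17 (95% interval 0.43 to 1.20, adjusted p = 0.14); over the alternatives its adjusted p ran from 0.00896 to 1. Sema4a differed by 1.21 ± 0.35 (95% interval 0.44 to 1.98, adjusted p = 0.348) and Unc5c by -1.11 ± 0.28 (95% interval -1.73 to -0.49, adjusted p = 0.255). For both genes the labels did not overlap.

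The other members with the largest P5 differences in their role overlapped between labels or differed less. On the netrin side Ntng1 differed by 0.86 ± 0.29 (adjusted p = 0.462), Ntn4 by 0.70 ± 0.29 (adjusted p = 0.599) and Unc5b by -0.75 ± 0.46 (adjusted p = 0.768). Among Slits and Robos, Slit3 differed by 0.65 ± 0.44, Slit1 by -0.31 ± 0.37, Robo1 by -0.49 ± 0.19 and Robo3 by -0.41 ± 0.55, with adjusted p of 0.567 or more. Among plexins and neuropilins, Plxnc1 differed by -0.59 ± 0.25, Plxnd1 by -0.51 ± 0.38, Nrp2 by -0.41 ± 0.38 and Nrp1 by -0.28 ± 0.21, and the best-supported plexin was Plxnb2 at 0.43 ± 0.13 (adjusted p = 0.406). Sema3f, another ligand with labels apart, differed by 0.43 ± 0.15 (adjusted p = 0.472), and Sema3g by -0.42 ± 0.27. For Eph receptors and ephrins, Epha8 differed by -1.33 ± 0.91 with an interval of -3.34 to 0.69, Epha3 by -0.53 ± 0.22 (adjusted p = 0.587), Ephb2 by -0.39 ± 0.27, Efna4 by 0.28 ± 0.16, Efnb3 by -0.16 ± 0.23 and Efnb1 by -0.10 ± 0.19.

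**Figure D3:**
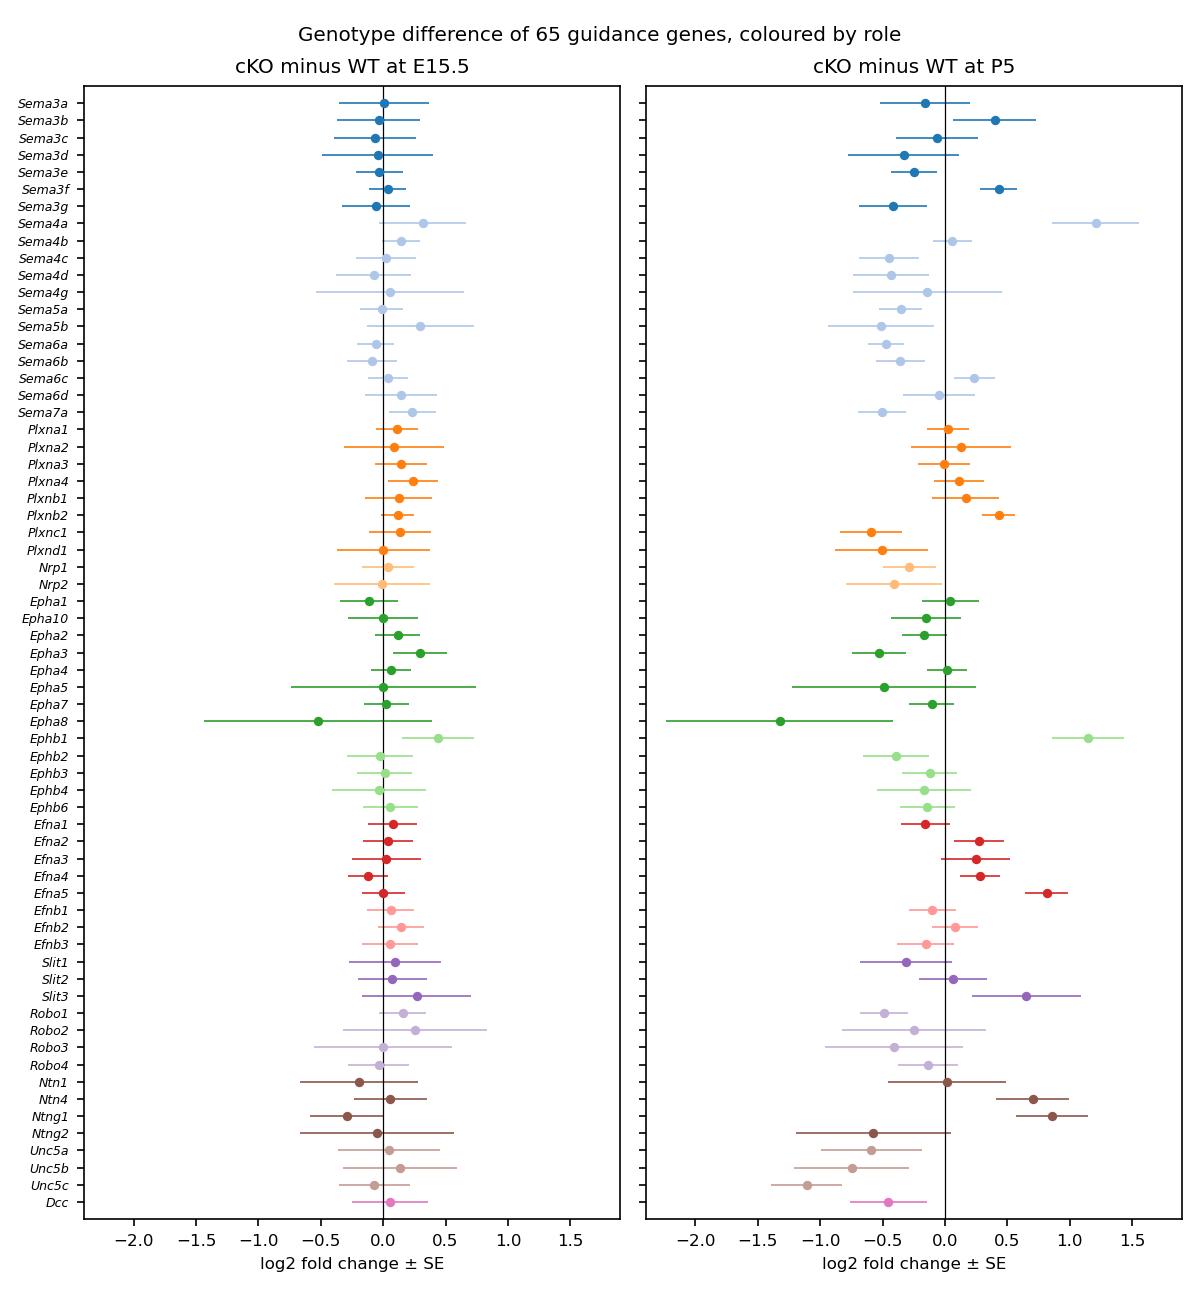
Difference between the cKO-labelled and the WT-labelled libraries (log2 fold change ± SE, n = 3 per group) for the 65 tested guidance genes at E15.5 and at P5, ordered and coloured by role. At E15.5, 64 genes lie within 0.5 of 0; at P5 the differences run from -1.33 (Epha8) to 1.21 (Sema4a), and no gene was called at either age.

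Whether the age change itself differed between genotypes was tested by the interaction. It called 0 of the 65 members in limma (against 0.0592% of all genes) and the lowest adjusted p among them was near 1, while 6 had an unadjusted p under 0.05 (2.65% of all genes), or 8 without WT replicate 3 and cKO replicate 2 of P5 (3.94%). The 6 were Efna5 (0.81 ± 0.25), Ntng1 (1.15 ± 0.41), Sema7a (-0.74 ± 0.27), Epha3 (-0.83 ± 0.30), Unc5c (-1.04 ± 0.40) and Robo1 (-0.65 ± 0.27), each as the cKO age change minus the WT age change. The 9 members called in 1 genotype alone are therefore not shown to differ between genotypes.

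The spread between P5 libraries was wider among the members than among all genes. On the log2 scale the SD between replicates had a median of 0.125 (WT) and 0.178 (cKO) at E15.5 for the members, against 0.105 and 0.116 for all genes, and 0.527 and 0.286 at P5, against 0.317 and 0.232. Replicate 3 of WT held the highest of the 6 P5 values for 29 of 65 members (44.6%, against 30.3% of all genes) and the lowest for 21 (32.3%, against 27.9%). In 15 members (23.1%, against 13.8% of all genes) the P5 libraries had the same order as the photoreceptor markers within both genotypes: Sema4g, Sema5b, Plxna2, Plxna3, Plxnb1, Epha5, Epha7, Epha8, Efna2, Slit2, Robo2, Robo3, Ntng2, Unc5a and Unc5c. Of these, Epha8, Epha5, Ntng2, Robo3, Robo2 and Sema4g spread by 36.6, 10.4, 8.87, 6.39, 6.35 and 6.16 times between the highest and lowest P5 library. Sema4g, for instance, stood at 198, 321 and 1061 in WT and 172, 790.4 and 369 in cKO at P5, with the lowest values where photoreceptor markers were lowest.

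The photoreceptor list had 24 of its 25 markers in the table. Its summed value was 7616 to 8060 in WT and 7599 to 7748 in cKO at E15.5, where 18 and 19 of the markers, Nrl and Sag among them, were at the floor in all libraries of the group. At P5 the sum was 11201 to 150635 in WT and 10590 to 78971 in cKO, with no marker at the floor throughout a group. Of the 20 retinal neuron markers in the table, the summed value at P5 was 13068 to 26753 in WT and 9930 to 22364 in cKO. The part of these cells in the rises of Robo3, Ntng2, Epha8 and Sema5b was not tested; with the photoreceptor list as a covariate the age change in WT and cKO was 1.26 and 0.76 for Robo3, 0.94 and 0.33 for Ntng2, 0.65 and -0.22 for Sema5b and 0.50 and -0.44 for Epha8. Ntng2 and Sema5b then kept their call in WT and Epha8 had none; as the list differs between the ages, age and photoreceptor signal cannot be told apart there.

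**Figure D4:**
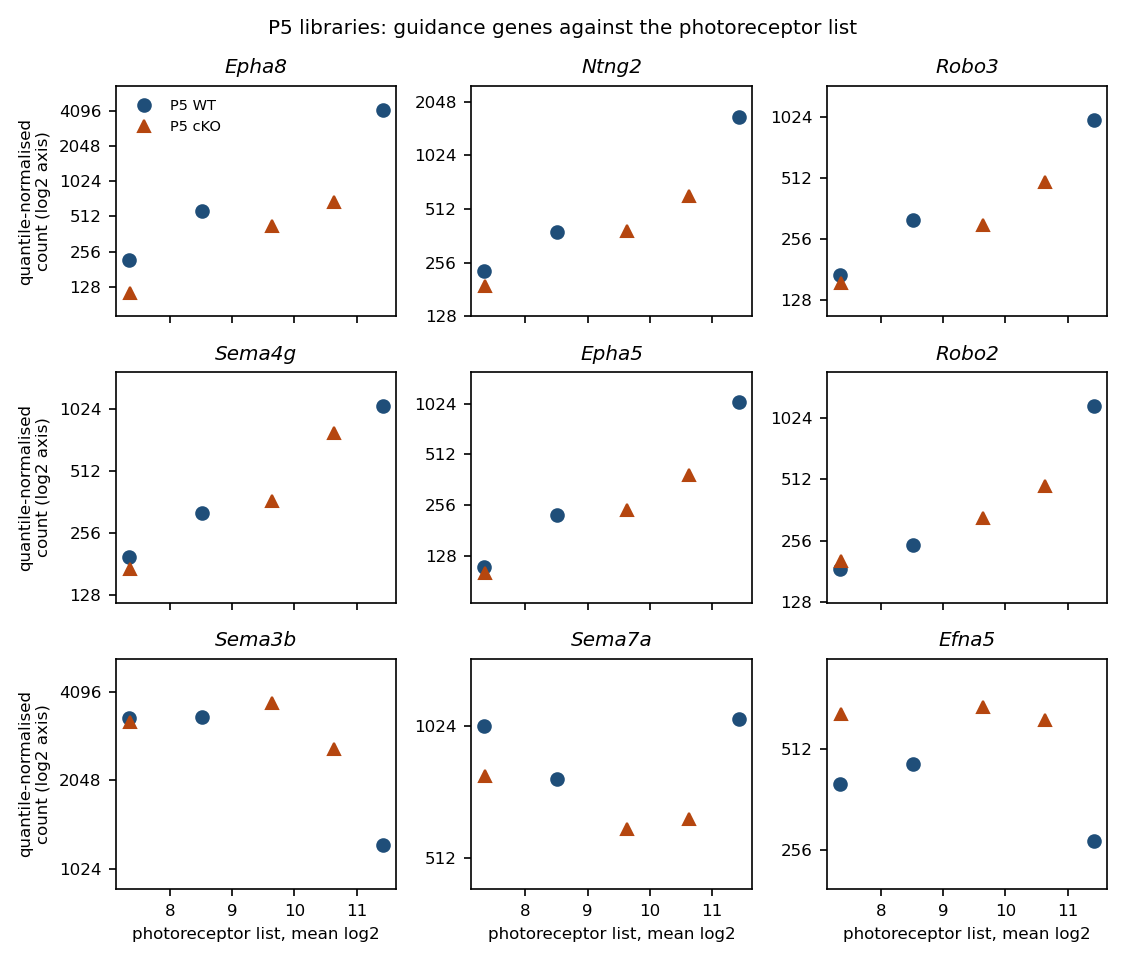
Quantile-normalised value (log2 axis) of 9 guidance genes in the 6 P5 libraries against the photoreceptor markers of the same library (mean log2 value, x axis), 1 point per library, coloured by genotype label. Epha8, Ntng2, Robo3, Sema4g, Epha5 and Robo2 are higher in libraries with more photoreceptor signal within each label, while Sema7a stays between 596 and 1060.3.

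A second group of 15 members (23.1%, against 15.3% of all genes) ran in the reverse order: Sema3a, Sema3c, Sema3d, Sema3g, Sema6d, Plxna1, Plxnd1, Nrp2, Ephb4, Efnb1, Efnb2, Slit3, Robo4, Ntn1 and Unc5b. The 18 endothelium markers, all in the table, had that same reverse order: their mean log2 value was 11.4, 11.2 and 10.3 in WT replicates 1 to 3 and 11.0, 10.1 and 10.6 in cKO replicates 1 to 3. The lists for mesenchyme and pericytes (12.7, 12.3 and 11.8, then 12.7, 11.7 and 11.9), macrophages (8.76, 8.39 and 7.25, then 8.65, 7.68 and 7.77) and melanocytes (9.49, 9.26 and 8.02, then 9.05, 8.11 and 8.57) had it too. The endothelium markers had a summed value of 13973 to 15513 in WT and 12868 to 15650 in cKO at E15.5. At P5 the sum was 29634 to 60252 in WT and 24672 to 46938 in cKO. None of the endothelium markers was at the floor throughout a group. This sum was higher at P5, as were Sema3g, Nrp1, Robo4 and Efna1, of which Nrp1 and Efna1 did not have the reverse order. Ephb4, Efnb2, Plxnd1 and Unc5b had the reverse order but were not called with age in either genotype. The fitted age changes of Ephb4 and Efnb2 were negative in both genotypes. With the endothelium list as a covariate the age change in WT and cKO was 0.45 and 0.31 for Nrp1 and 0.36 and 0.28 for Efna1, none of them called. Robo4 is itself one of the 18 markers, so its own values are part of that covariate. For Sema3g it was 0.80 and 0.71, both called (adjusted p = 0.0330 and 0.0273). The WT calls of Sema3b (0.40, adjusted p = 0.487) and Sema4a (1.53, adjusted p = 0.104) ended. Of the 13 rises and 19 falls in WT 6 and 11 kept their call, and of the 11 and 20 in cKO 6 and 11. With the 18 lens markers as a covariate 12 and 16 kept it in WT, but 4 and 10 in cKO; the cKO rises of Sema3g (1.19, adjusted p = 0.0733), Sema3b (1.02, adjusted p = 0.0583), Nrp1, Efna1, Robo4, Ntn4 and Ntng1 ended there. As both lists differ between the ages, age and their signal cannot be told apart there. The share of calls kept among all genes is not given, so these losses are not shown to be particular to the members. Sema7a, Sema3a, Epha3, Epha7, Ephb3, Efna4, Robo1 and Sema5a kept their calls in both genotypes under all alternatives run, these covariates included.

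Other genes of guidance signalling, 55 in all, were taken from a list of co-receptors, cytoplasmic effectors and related cues, of which 54 were tested. In WT 4 rose (7.41%, against 15% of all genes) and 16 fell (29.6%, against 23.2%), and in cKO 4 rose (7.41%, against 17.6%) and 19 fell (35.2%, against 26.1%), with medians of -0.10 and -0.37. Flrt3, a membrane ligand of Unc5 receptors, stood at 724, 732 and 727 in WT and 763, 718 and 728 in cKO at E15.5 and at 132, 148 and 148 in WT and 273, 162 and 243 in cKO at P5. It fell by 2.34 ± 0.17 in WT (adjusted p = 8.7e-06), more than any other gene of the list in WT. Ablim3, an actin-binding protein, fell by 2.14 ± 0.29 in WT, Rgma, a repellent read by neogenin, by 1.69 ± 0.18 in WT, and Srgap1, a Robo effector, by 1.75 ± 0.13 in cKO. Among the rises in WT were Nrcam (1.25 ± 0.27) and Fes (1.01 ± 0.23), where Fes is a kinase that acts downstream of plexins. By genotype label, 0 of the 54 were called at E15.5 and 1 at P5, higher in cKO (1.85%, against 0.2% of all genes). That gene was Flrt1, at 95.8, 71.3 and 53.2 in WT and 180.2, 192 and 243 in cKO at P5 and 1.50 ± 0.24 higher in the cKO-labelled libraries (adjusted p = 0.0363).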

How the data were processed

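The members and gene lists were chosen with earlier results of these data known. The aligner was TopHat2 2.0.10, the genome mm10 and the counter HTSeq, per the submitters' processing notes. The deposited signal values are gene counts that the authors quantile-normalised and set to at least 50; all 12 columns held the same sorted values, with 9.87% at the floor and a sum of 12618429, so depth is unknown and no counting error could be attached. The sources used here do not name the authors' annotation or strand setting.

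Genes above the floor in at least 3 libraries (13523) were fitted as log2(value + 1) in limma 3.58.1 (R 4.3.3), with 1 mean per group over 12 libraries, eBayes with trend and Benjamini-Hochberg adjustment over all of them; tests were two-sided, and every adjusted p is limma's. Fold changes are log2 differences on this scale. Intervals use 10.6 degrees of freedom. Each gene has 1 variance over the 4 groups, so the SE, interval and p at either age carry the spread of both ages. In simulated P5 genotype differences over 13851 genes, 65.7% of 99 genes changed 2-fold and 89.9% of 99 changed 4-fold were recovered. The simulated libraries were drawn independently around the E15.5 WT means, with 1 SD per gene for all groups. They lack the wider spread of the P5 libraries and the signal these share, so the rates do not give the power of the real P5 comparison. Members given in full were, per role, the largest called age changes, the 2 largest genotype differences and the highest level per kb; the others stand as counts, or were named after their values were seen. Exon lengths come from GENCODE M21 (GRCm38). Alternatives varied the pseudocount, filter, scaling, eBayes trend, library weights, libraries fitted, replicate block, marker covariates and libraries left out; the retinal neuron and endothelium covariates and the joint removal of 2 P5 libraries were added after the data were seen.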

Additional observations from a re-analysis of the deposited data

How the results depend on the processing

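At E15.5 and for the interaction, 0 members were called in every alternative run. At P5 the count by genotype label rose from 0. Higher in cKO were 1 member with library weights, 2 with the photoreceptor term, 1 with the lens term, 2 with the retinal neuron term and 4 with the endothelium term. Lower were 1, 2, 0, 2 and 9 in the same order. Of all genes, these fits called 0.91%, 0.917%, 0.104%, 0.85% and 4.39% higher and 0.636%, 0.584%, 0.214%, 0.444% and 4.33% lower. With the photoreceptor and the retinal neuron term these were Ephb1 and Efna5 (higher) and Epha8 and Unc5c (lower); Ephb1 was also called with library weights, with the lens term and without P5 WT replicate 3. With age, cKO rises numbered 17 with the photoreceptor term (24.9% of all genes) and 18 with the endothelium term (20.3%), and cKO falls 13 with the lens term (12.5%). Of the 11 and 20 reported, 10, 6 and 10 were among them. The lists differ between the ages, and the share of calls kept among all genes is not given. Leaving out libraries gave 10 to 17 rises and 16 to 23 falls in WT, 10 to 15 rises and 18 to 26 falls in cKO, 0 to 1 higher and 0 to 0 lower in cKO at P5, and 0 to 0 for E15.5 and the interaction.

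The sign of an age change turned, in a fit where it or the reported value was called, in 15 cases. With the endothelium term in WT these were Nrp2 (-2.0), Ntn4 (-0.026), Plxnd1 (-1.24), Robo2 (2.72), Robo4 (-0.029, itself in that list), Sema3c (-1.47) and Unc5b (-1.73), and in cKO Plxnd1 (-1.35), Robo2 (1.63) and Sema3c (-1.16). With the photoreceptor term in cKO they were Efnb1 (0.037), Nrp2 (0.81), Ntn1 (0.75), Slit1 (-0.85) and Unc5b (1.08). The cause was not tested.

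Whether replicate numbers pair the libraries was not settled. Deviations of same-numbered WT and cKO libraries correlated at -0.02, 0.27 and -0.02 at E15.5 and 0.78, -0.30 and 0.19 at P5. WT replicate 3 and cKO replicate 2 of P5, each highest of its label in photoreceptor signal, correlated at 0.71. Such correlations cannot show whether libraries shared a litter or processing. With the replicate block, 14 members rose and 18 fell in WT, 12 rose and 20 fell in cKO (14.8%, 22.7%, 17.6% and 25.9% of all genes), and 0 were called by genotype. Rescaling by median ratios moved the median age change of all genes in WT from -0.07 to 0.03 and in cKO from -0.08 to 0.02. The unknown depth and the floor of 50 limit what can be said of Dcc, Slit1, Epha10 and Robo3. The floor also limits the falls of Sema3e and Efna3 and their spread at P5. At P5 Sema3e stood at 58.5, 50 and 75.4 in WT and 51.8, 50 and 50 in cKO. Efna3 stood at 50, 50 and 94.7 in WT and 50, 92.6 and 85.8 in cKO. Epha1 in WT and Unc5c in cKO each had 1 P5 library at the floor.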

Other observations

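Some guidance genes lie next to each other in the mouse genome (GRCm38, GENCODE M21) within 100 kb, and some of these neighbours changed with age in opposite directions. On chromosome 3 the ephrin-A genes Efna1 (89271733 to 89281142), Efna3 (89313899 to 89322965) and Efna4 (89333390 to 89338028) share the minus strand, with gaps of 32.8 kb and 10.4 kb. Efna1 rose and Efna3 and Efna4 fell in both genotypes. On chromosome 9 Sema3b (107597674 to 107609229) and Sema3f (107681500 to 107710475) lie 72.3 kb apart; Sema3b rose in both genotypes and Sema3f fell in WT. On chromosome 4 Ephb2, which fell in both, lies 93.4 kb from Epha8, which rose in WT. On chromosome 9 Robo4 and Robo3 face each other with 553 bases between their ends. Both rose in both genotypes, but the rise of Robo3 was built into the filter. Among the P5 libraries Robo3 had the order of the photoreceptor markers and Robo4 the reverse order.

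Exons of 16 members overlap exons of another gene, over more than 10% of the length in 4: Plxna1 (10.7%), Efna3 (14.1%), Efna4 (10.5%) and Ntng2 (14.0%). Values of these genes are uncertain to that extent, since how shared reads were handled is not known. The promoter windows of the 9 members that rose in both genotypes and had a window had a median GC content of 61.2%, those of 16 that fell 64.6% and those of 24 called in neither 65.8%, against 60.4% for all genes tested.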
